A study of Homo sapiens with 10 samples.

Results

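The unperturbed transcriptome described here is that of SNU398, an established human line derived from a hepatocellular carcinoma, as read from its 2 scramble RNA libraries of the 10 samples in the series. The 2 libraries were chosen by label alone: both come from cells transduced with a scrambled short hairpin RNA, a control hairpin meant to match no transcript, and the other 2 of the 4 RNA libraries were not analysed here. Cells were grown in RPMI with 10% FBS, and total RNA was taken with Trizol 72 hours after transduction and sequenced as 75-base read pairs. No untransduced SNU398 library was analysed here, so every value includes the control virus, and the cells are 1 line in culture. The labels number the libraries 1 and 2 without saying whether they came from separate cultures, so the spread between them may be technical. Replicate 1 held 203013433 gene counts and replicate 2 held 158934493. Levels are given as CPM, the usual scaling of a gene's count to the counts of all gene rows in its library, and a CPM is a share of reads that grows with transcript length. A gene is called expressed at 1 CPM or more in both libraries and at or near 0 under 0.1 CPM in both, which is 20.3 counts in replicate 1 and 15.9 in replicate 2. By these rules 63.3% of 19036 nuclear protein-coding genes were expressed, 23.4% were at or near 0 and 13.3% lay between. Over all 56301 gene symbols, noncoding ones included, 24.8% were expressed, 59.1% were at or near 0 and 31.4% had no count in either library. The authors also deposited a combined count matrix with a column for each of these libraries. Of the protein-coding genes at or near 0 here and present in both tables, 95% were so in the matrix and 0.433% reached 1 CPM there, and of those expressed here 99.9% were expressed there. A count of 0 still allows 0.0148 CPM in replicate 1 and 0.0189 CPM in replicate 2 (3 counts, counting error only). In a bulk library, fewer cells of a type and less RNA per cell cannot be told apart.

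Hepatocytes are the secretory and metabolic cells of the liver, and their mature state is known to depend on a network of transcription factors that includes HNF4A, FOXA2 and CEBPA. Liver cancers can keep that programme or lose it, and poorly differentiated ones are known to carry genes of the fetal liver, called oncofetal genes. SALL4 is one of these: its zinc finger protein works in stem cells of the embryo and is switched off in the adult liver. The RNA-binding proteins LIN28B, which blocks let-7 microRNA maturation, and IGF2BP1, which stabilises bound mRNAs, belong to the same fetal set.

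The defining products of hepatocytes were scarce in these libraries. Albumin (ALB), the main plasma protein, had 142 counts in replicate 1 and 66 in replicate 2, or 0.699 and 0.415 CPM. Transthyretin (TTR), a thyroid hormone carrier, had 1 count in each library. The protease inhibitor SERPINA1 had 0 and 3 counts, and APOB, the structural protein of lipoproteins made by the liver, had 0 and 4. Of 44 plasma protein genes, 28 were at or near 0, 12 lay between and 4 were expressed, against 63.3% expressed and 23.4% at or near 0 over all protein-coding genes. The 7 members APOC3, F9, FETUB, ORM1, GC, HRG and CRP had 0 counts in both libraries. The median over the list was 0.0406 CPM, against 9.66 CPM over all protein-coding genes. Of the 4 expressed members 3 are given here: complement component C5 (8.09 and 8.15 CPM), the lipoprotein ligand APOE (2.53 and 8.37 CPM) and the HDL protein APOM (2.70 and 2.67 CPM). APOE differed most between the libraries among these 3, and its value in replicate 2 was over 3 times that in replicate 1. At the RNA level the libraries thus go against a reading of the line as hepatocyte-like, and they are called the scramble SNU398 libraries here.

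The 4 genes taken as markers of the line were all expressed, beside 63.3% of all protein-coding genes. They were chosen with earlier results of these data known, and no other line was compared. SALL4 (RefSeq, GRCh38.p14, chr20:51782331-51802521) had 14632 counts in replicate 1 and 9332 in replicate 2, or 72.1 and 58.7 CPM, with a mean of 65.4 ± 9.45 (SD, n = 2). LIN28B, at chr6:104937026-105083332, was at 87.5 and 65.8 CPM (76.7 ± 15.3, SD, n = 2). IGF2BP1, at chr17:48996558-49056145, was at 178.6 and 167.5 CPM (173 ± 7.79, SD, n = 2). VIM, at chr10:17228241-17237593, which encodes the intermediate filament protein of mesenchymal cells, was at 1718 and 1367 CPM (1543 ± 248, SD, n = 2), and it was at 813 CPM in the combined matrix. All 4 were lower in replicate 2, and IGF2BP1 differed least between the libraries. None of the 4 came near the limit of 1 CPM in either library.

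The sequence upstream of a gene's start was compared with its expression, because the choice of libraries did not use it. Promoters of broadly used genes are known to be rich in CpG dinucleotides, while those of many tissue-restricted genes are poor in CpG and more often hold a TATA box. The 250 bases upstream of the first listed RefSeq start (GRCh38.p14) are printed 5′ to 3′ for 3 expressed genes and 2 hepatic genes, with CG dinucleotides and the motif TATAAA in capitals. For LIN28B and HOXD13 this start lies inside the span that RefSeq gives the gene, so other starts may exist.
LIN28B: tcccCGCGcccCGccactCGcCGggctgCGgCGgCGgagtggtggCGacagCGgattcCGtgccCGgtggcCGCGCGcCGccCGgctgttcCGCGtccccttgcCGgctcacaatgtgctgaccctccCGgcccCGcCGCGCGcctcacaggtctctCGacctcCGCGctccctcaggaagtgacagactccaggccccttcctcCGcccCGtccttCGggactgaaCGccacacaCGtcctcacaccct
VIM: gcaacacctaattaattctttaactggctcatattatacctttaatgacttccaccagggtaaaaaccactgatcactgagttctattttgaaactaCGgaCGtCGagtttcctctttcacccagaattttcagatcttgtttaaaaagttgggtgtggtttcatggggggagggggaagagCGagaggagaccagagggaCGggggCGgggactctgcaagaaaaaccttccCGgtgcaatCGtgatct
HOXD13: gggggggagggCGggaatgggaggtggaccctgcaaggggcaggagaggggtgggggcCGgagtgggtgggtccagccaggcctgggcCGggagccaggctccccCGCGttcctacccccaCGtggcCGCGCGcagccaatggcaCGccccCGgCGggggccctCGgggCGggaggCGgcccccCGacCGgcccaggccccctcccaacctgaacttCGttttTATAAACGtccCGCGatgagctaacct
ALB: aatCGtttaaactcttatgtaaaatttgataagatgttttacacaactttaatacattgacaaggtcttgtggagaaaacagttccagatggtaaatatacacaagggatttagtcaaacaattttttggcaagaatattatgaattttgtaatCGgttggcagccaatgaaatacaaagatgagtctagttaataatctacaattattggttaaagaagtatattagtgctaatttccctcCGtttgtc
AFP: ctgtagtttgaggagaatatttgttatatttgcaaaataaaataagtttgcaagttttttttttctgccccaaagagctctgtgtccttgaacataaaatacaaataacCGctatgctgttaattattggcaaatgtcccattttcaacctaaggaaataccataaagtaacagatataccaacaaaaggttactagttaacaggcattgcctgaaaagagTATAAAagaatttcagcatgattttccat
The LIN28B window (chr6:104940715-104940964, plus strand) holds 33 CG dinucleotides, at an observed over expected ratio of 1.03. That of VIM (chr10:17227991-17228240, plus strand) holds 8, at a ratio of 0.613, and its 300-base window, used below, has a ratio of 0.584. The window of HOXD13 (chr2:176092471-176092720, plus strand), a homeobox gene at 124 and 110 CPM, holds 21 CG dinucleotides and 1 TATAAA. The ALB window (chr4:73404037-73404286, plus strand) holds 3 CG dinucleotides and no TATAAA. That of AFP (chr4:73435971-73436220, plus strand), the fetal counterpart of albumin with 10 and 8 counts here, holds 1 CG dinucleotide and 1 TATAAA.

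Across protein-coding genes, promoter CpG content differed widely between genes that were expressed and genes at or near 0. RefSeq promoter windows of 300 bases, from 250 before to 50 after the start, were matched for 15225 of the 19036 genes. The median CpG observed over expected ratio was 0.850 in expressed genes, 0.533 in genes between the limits and 0.273 in genes at or near 0, against 0.769 over all 15225. A ratio of 0.6 or more was found in 85.7% of expressed genes and in 22.7% of genes at or near 0. Read the other way, 83.8% of CpG-rich promoters belonged to expressed genes, against 28.1% of CpG-poor ones. The motif TATAAA, searched on both strands, was present in 5.17% of windows of expressed genes, in 21.1% of those at or near 0 and in 9.58% of all windows. Plasma protein promoters had a median ratio of 0.239. No test was made, since genes are not replicates, and a match to these letters is a description of the window.

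**Figure D1:**
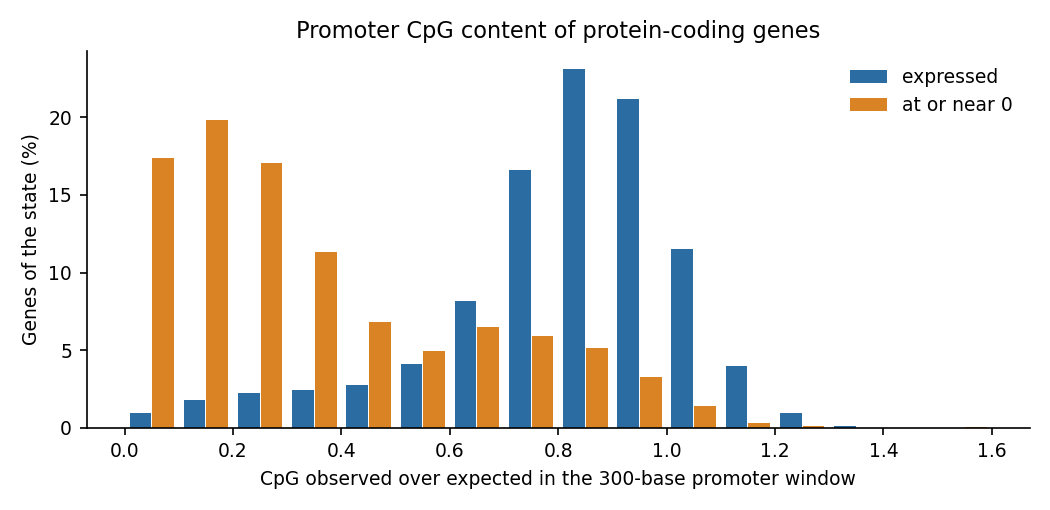
Share of protein-coding genes (y axis, percent of the genes in each state) by the CpG observed over expected ratio of their 300-base promoter window (x axis, bins of 0.1), for genes expressed in both scramble libraries and genes at or near 0 in both. The medians are 0.850 and 0.273, and the states overlap between them.

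Transcription factors of the hepatocyte network were split. Of 26 on the list, 13 were expressed (50%), 6 were at or near 0 (23.1%) and 7 lay between. Beside this, 63.3% of all protein-coding genes were expressed and 23.4% were at or near 0. The share at or near 0 was thus close to that of all genes. HNF4A, the nuclear receptor at the centre of the network, had 2 counts in replicate 1 and 4 in replicate 2. The pioneer factor FOXA2 had 4 and 1, PROX1, which acts in hepatoblast development, had 5 and 2, and the bile acid receptor NR1H4 had 13 and 1. Other factors of the same network were well above the limit. FOXA1, the close relative of FOXA2, was at 39.5 and 39.0 CPM, TBX3 at 27.5 and 31.3 CPM, the heterodimer partner RXRA at 25.7 and 30.1 CPM, and the early endoderm factor GATA4 at 16.3 and 18.6 CPM. CEBPA, a factor of mature hepatocytes, was at 13.2 and 13.7 CPM, HNF4G, the paralogue of HNF4A, at 14.25 and 14.04 CPM, and HHEX, needed for liver bud formation, at 13.5 and 11.3 CPM. Both libraries thus hold FOXA1 and HNF4G where FOXA2 and HNF4A had at most 4 counts.

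Enzymes and transporters of hepatocytes followed the plasma proteins more than the transcription factors. Of 42 on the list, 25 were at or near 0, 10 lay between and 7 were expressed, with a median of 0.0317 CPM. Over all protein-coding genes 63.3% were expressed and 23.4% were at or near 0, with a median of 9.66 CPM. CYP7A1, the rate-limiting enzyme of bile acid synthesis, the bile salt pump ABCB11, the uptake carriers SLCO1B1 and SLCO1B3, the gluconeogenic enzyme FBP1 and BHMT had 0 counts in both libraries. OTC of the urea cycle had 0 and 1 counts. Other steps of that cycle were present: ASL was at 17.9 and 26.2 CPM, ASS1 at 10.2 and 15.5 CPM, NAGS at 5.57 and 7.08 CPM, and CPS1 at 1.57 and 2.07 CPM. The retinal dehydrogenase ALDH1A1 stood far above the rest of its list at 464 and 445 CPM (455 ± 13.3, SD, n = 2). TDO2, which starts tryptophan breakdown, was at 40.6 and 21.3 CPM. ALDH1A1 differed little between the libraries, while TDO2 in replicate 1 was close to double its value in replicate 2. Among genes of the CYP family at large 13 of 55 were expressed, and of 21 UGT genes 0 were expressed and 21 were at or near 0.

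**Figure D2:**
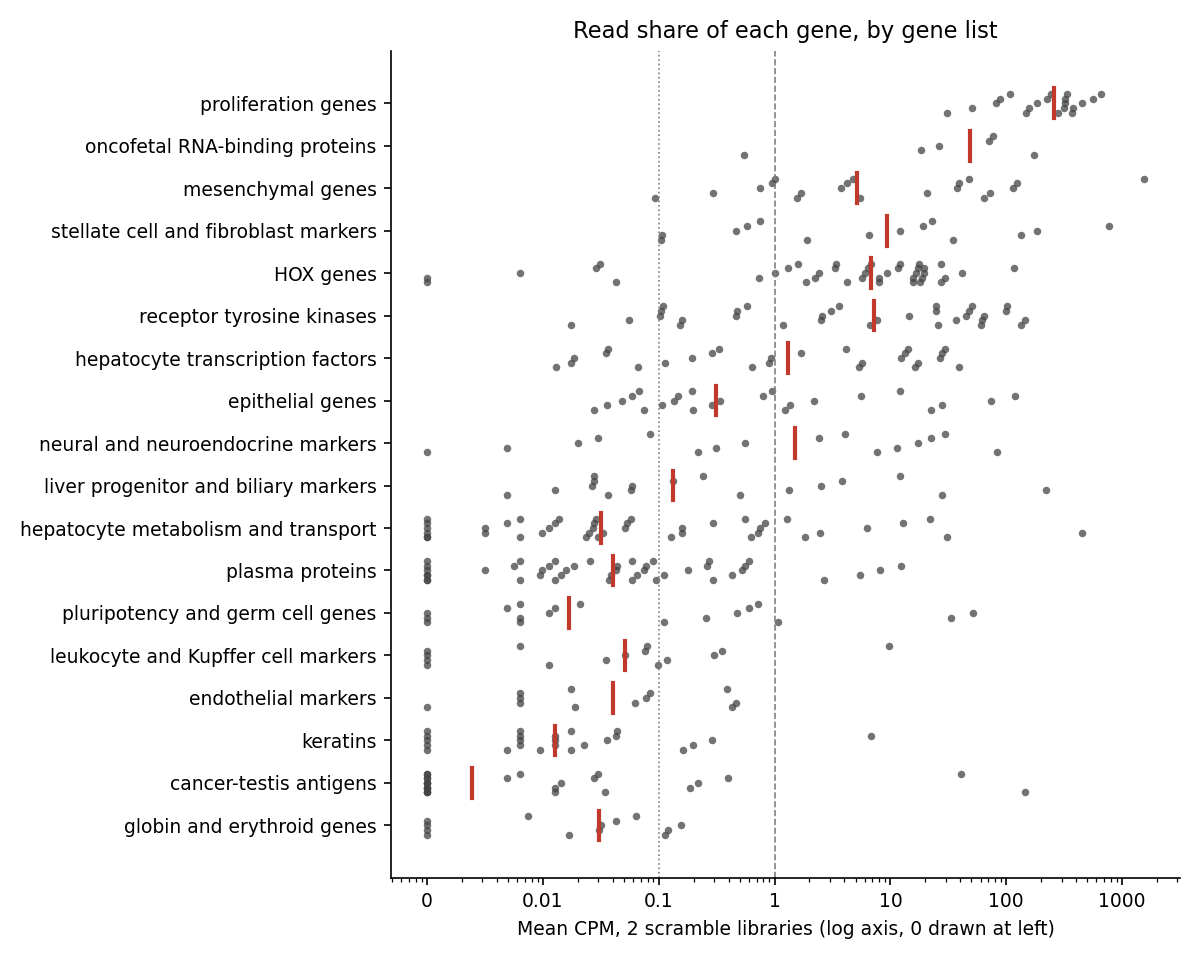
Mean CPM of the 2 scramble libraries (x axis, log scale, genes with 0 counts drawn at the left end) for every measured gene of 18 lists (rows). Points are genes, red bars list medians, the dashed line 1 CPM and the dotted line 0.1 CPM. Plasma protein and hepatocyte metabolism genes lie mostly under 0.1 CPM, and all 20 proliferation genes lie above 1 CPM.

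Many metabolic enzymes exist as a liver isozyme and a second form used in fetal or other tissues, and the list held 12 such pairs. Of the 12 liver forms 5 were expressed (41.7%), and of the 12 other forms 11 were (91.7%), beside 63.3% of all protein-coding genes. ALDOA, a glycolytic aldolase counted with the other forms, had 243730 and 284500 counts, or 1201 and 1790 CPM. The combined matrix gives ALDOA 25.7 times less as a CPM, which still leaves 6344 counts in replicate 1. For pyruvate kinase, PKLR had 19 and 10 counts, and PKM was at 1271 and 1653 CPM. For glucose uptake, SLC2A2 had 1 and 0 counts, and SLC2A1 was at 22.9 and 81.2 CPM. MAT1A, the liver form of methionine adenosyltransferase, was expressed at 2.81 and 7.27 CPM, with MAT2A at 228 and 214 CPM. Not every pair was one-sided: the liver glycogen phosphorylase PYGL was at 261 and 298 CPM beside PYGB at 184 and 220 CPM, and liver phosphofructokinase PFKL was at 110 and 174 CPM beside PFKP at 260 and 367 CPM. ACACB and ACSL1, counted with the liver forms, were expressed at 52.1 and 59.4 CPM and at 72.0 and 75.5 CPM.

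Oncofetal genes were expressed unevenly. All 3 IGF2BP paralogues were present, with IGF2BP2 at 69.8 and 72.4 CPM and IGF2BP3 at 28.3 and 24.4 CPM beside IGF2BP1. The let-7 target TRIM71, an RNA-binding ubiquitin ligase, was at 19.4 and 17.1 CPM. LIN28A, the paralogue of LIN28B, lay between the limits at 0.635 and 0.459 CPM, so 5 of the 6 RNA-binding proteins on the list were expressed. Of 15 oncofetal and fetal liver genes 10 were expressed, 4 lay between and 1 was at or near 0, the last being AFP. The share expressed, 66.7%, was near the 63.3% of all protein-coding genes. HMGA1 and HMGA2, architectural chromatin proteins of embryonic cells, were at 309 and 342 CPM and at 161 and 124 CPM. The growth factor midkine (MDK) was at 166 and 206 CPM. GPC3, a cell surface proteoglycan used as a marker of hepatocellular carcinoma, was at 16.02 and 20.02 CPM. Imprinted genes were split, with PEG10 at 50.6 and 56.5 CPM, MEST at 54.9 and 61.4 CPM and PEG3 at 63.4 and 43.8 CPM. H19 passed the limit narrowly at 1.18 and 2.23 CPM, and IGF2 lay between the limits at 0.310 and 0.384 CPM. SALL4, GPC3 and the HMGA genes were therefore present without the fetal albumin AFP.

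Stem cell and germ cell genes beyond SALL4 were mostly low. Over all protein-coding genes, the background for each list here, 63.3% were expressed and 23.4% were at or near 0. Of 18 pluripotency and germ cell genes 10 were at or near 0 and 2 were expressed. These 2 were the DNA methyltransferase DNMT3B (48.5 and 54.3 CPM) and TERT, the catalytic subunit of telomerase (30.4 and 36.4 CPM). Of 26 measured cancer-testis antigens, genes normally limited to germ cells, 21 were at or near 0 and 13 had 0 counts in both libraries. PRAME was the exception at 136 and 155 CPM (145 ± 13.02, SD, n = 2). GAGE1 was at 43.4 and 37.4 CPM, but the GAGE genes are near-identical copies, so the share of this copy is uncertain. Progenitor and biliary markers were also split: of 17, 6 were expressed and 7 were at or near 0. The transcription factor SOX4 was at 227 and 210 CPM and the adhesion molecule EPCAM at 31.4 and 24.9 CPM. The biliary keratins KRT19 and KRT7 had 0 and 4 and 2 and 0 counts, the hyaluronan receptor CD44 had 6 and 4, and PROM1 had 6 and 7.

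Of 20 mesenchymal genes 15 were expressed, or 75% beside 63.3% of all protein-coding genes, and 0 were at or near 0 in both libraries (1 in replicate 1 alone and in the combined matrix). Their median of 5.14 CPM was below the 9.66 CPM of all protein-coding genes. The transcription factors ZEB2 (126 and 121 CPM), TWIST1 (66.6 and 77.9 CPM) and PRRX1 (39.4 and 36.4 CPM), all known for repressing or replacing epithelial programmes, were expressed. So were the membrane protease MMP14 (104 and 126 CPM), the receptor kinase AXL (45.9 and 48.9 CPM), fibronectin FN1 (37.5 and 41.3 CPM) and N-cadherin CDH2 (20.9 and 20.7 CPM). Each of these differed by less than 1.5-fold between the libraries. ZEB1 was lower at 3.72 and 3.74 CPM, and the matrix protein SPARC lay between the limits at 0.256 and 0.327 CPM.

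Of 24 epithelial genes 7 were expressed (29.2%), 6 were at or near 0 (25%) and 11 lay between, with a median of 0.312 CPM. Among all protein-coding genes 63.3% were expressed and 23.4% were at or near 0, and their median was 9.66 CPM. The epithelial share at or near 0 was thus close to that of all genes, while the share expressed was lower. E-cadherin CDH1 was at 0.916 and 1.77 CPM, on either side of the limit. The simple epithelial keratins KRT8 and KRT18, which hepatocytes pair into filaments, had 26 and 42 and 8 and 5 counts. The tight junction protein CLDN1 had 6 and 4 counts, and the epithelial splicing factor ESRP1 had 8 and 9. In contrast the junction scaffold TJP1 was at 136 and 103 CPM, desmoplakin DSP at 73.9 and 72.7 CPM and occludin OCLN at 22.8 and 22.4 CPM. On a list of 24 keratins 20 were at or near 0 (83.3%), and the single one expressed was KRT10, at 8.57 and 5.10 CPM.

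Of 14 markers of stellate cells and fibroblasts 9 were expressed, or 64.3% beside 63.3% of all protein-coding genes, and the median of 9.29 CPM was close to the 9.66 CPM of all. The other 5 lay between the limits, and the genes named below are all among the 9 expressed. None was at or near 0 in both libraries, and 2 were in replicate 1 alone. The fibrillar collagen COL3A1 was at 743 and 794 CPM (768 ± 36.4, SD, n = 2), lumican LUM at 234 and 136 CPM, RGS5 of pericytes at 176 and 91.1 CPM and the protease FAP at 37.0 and 32.2 CPM. The chains of type I collagen were also expressed, with COL1A1 at 5.01 and 8.12 CPM and COL1A2 at 1.84 and 2.00 CPM. COL3A1 was close in both libraries, while LUM and RGS5 were lower in replicate 2. The summed level of the list was 1253 CPM in replicate 1 and 1119 in replicate 2, and its part in the mesenchymal values was not tested.

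Most lists of markers of other cell types were low, against 63.3% expressed and 23.4% at or near 0 over all protein-coding genes. The neural and the kidney lists were less so. Of 15 leukocyte and Kupffer cell markers 1 was expressed, the actin regulator CORO1A at 8.999 and 10.54 CPM, and 9 were at or near 0. CD68, one of these 9, was at 8.11 and 7.26 CPM in the combined matrix. Of 12 endothelial markers 0 were expressed, and of 13 globin and erythroid genes 0 were expressed. Of 8 genes of kidney-derived packaging cells, in which viral vectors are commonly made, 4 were expressed: LHX1, EMX2, WT1 and PAX2, between 2.50 and 10.6 CPM. Of 16 neural and neuroendocrine genes 8 were expressed (50%) and 4 were at or near 0 (25%, close to the share of all genes). The expressed ones were led by ENO2 (53.5 and 114 CPM), neuronal tubulin TUBB3 (27.1 and 32.5 CPM) and the granule proteins CHGB (24.0 and 20.8 CPM) and CHGA (11.6 and 11.3 CPM). Of 15 intestine, pancreas and lung markers 3 were expressed: GCG, the proglucagon gene, at 12.3 and 13.4 CPM, the intestinal factor CDX2 at 8.70 and 10.9 CPM and NKX2-1 at 2.09 and 3.59 CPM. NKX2-5, a cardiac homeobox factor, was at 24.1 and 29.1 CPM and was the single one of 16 muscle, germ layer and placenta markers to be expressed. ENO2 was over 2-fold higher in replicate 2, and the other expressed genes named in this group differed by less than 2-fold between the libraries.

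HOX genes, which give cells their position along the body axis and lie in 4 clusters, were expressed from all 4. Of 39 genes 31 were expressed, 6 were at or near 0 and 2 lay between, or 79.5% expressed against 63.3% of all protein-coding genes. By cluster 7 of 11 HOXA genes on chromosome 7, 9 of 10 HOXB genes on chromosome 17, 9 of 9 HOXC genes on chromosome 12 and 6 of 9 HOXD genes on chromosome 2 were expressed. HOXD13, whose promoter is printed above, held the most reads at 124 and 110 CPM (117 ± 10.6, SD, n = 2). HOXC10 followed at 34.8 and 48.1 CPM and HOXB7 at 30.3 and 29.4 CPM. All 4 genes of group 13, the posterior end of the series, were expressed, with HOXC13 at 17.6 and 21.5 CPM, HOXB13 at 12.4 and 18.7 CPM and HOXA13 at 9.29 and 14.8 CPM. The genes at or near 0 were HOXA4, HOXA9, HOXA10, HOXB1, HOXD3 and HOXD4. In the HOXA cluster HOXA9 had 0 and 2 counts and HOXA10 had 4 and 6, next to the expressed HOXA11 (6.11 and 7.58 CPM).

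**Figure D3:**
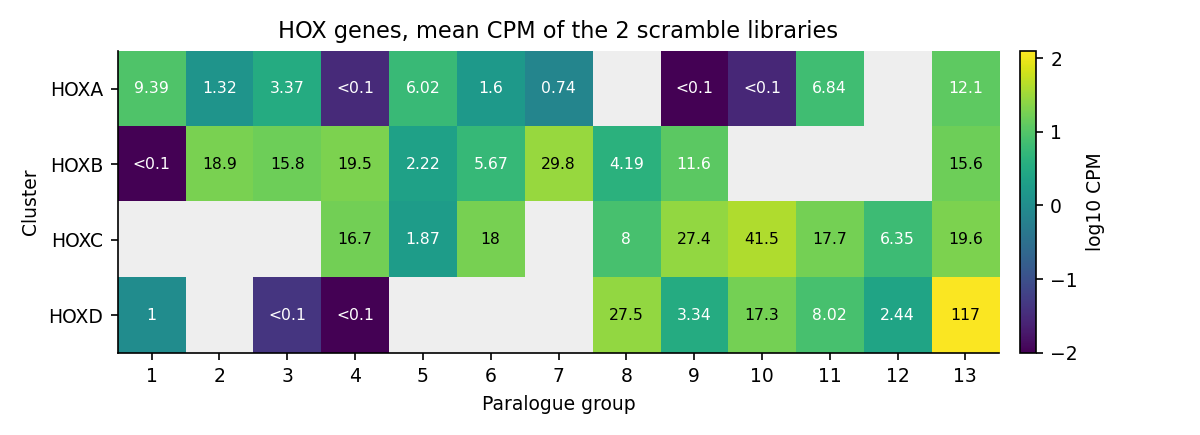
Mean CPM of the 2 scramble libraries for 39 HOX genes, by cluster (rows) and paralogue group (columns), with the value printed in each cell and colour giving log10 CPM. Grey cells hold no gene, and HOXD13 has the highest value at 117 CPM.

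Of 32 receptor tyrosine kinases 21 were expressed (65.6%, near the 63.3% of all protein-coding genes) and 1 was at or near 0, a number that becomes 5 in replicate 1 alone and 2 in the combined matrix or with TMM scaling. The ephrin receptors EPHB4 (124 and 164 CPM) and EPHA2 (100.7 and 99.97 CPM), the collagen receptor DDR2 (111 and 154 CPM) and FGFR1 (96.3 and 107 CPM) took the most reads. ERBB2 was at 61.1 and 68.1 CPM and FGFR4, the FGF19 receptor of hepatocytes, at 51.6 and 70.4 CPM. EGFR was at 3.19 and 2.99 CPM, and MET, the receptor for hepatocyte growth factor, lay between the limits at 0.463 and 0.491 CPM, while its ligand HGF was at 10.9 and 9.16 CPM. Of 32 secreted growth factors 20 were expressed, a share of 62.5% that is also near that of all genes, among them TGFB1 (105 and 99.3 CPM), VEGFA (84.3 and 101 CPM), PDGFA (37.3 and 46.3 CPM) and the Wnt inhibitor DKK1 (61.1 and 32.7 CPM).

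Genes of the dividing cell were expressed throughout. All 20 proliferation genes passed the limit, beside 63.3% of all protein-coding genes. They include the helicase subunit MCM7 (650 and 652 CPM), TOP2A, which untangles replicated DNA (634 and 488 CPM), BIRC5 (450 and 447 CPM) and MKI67 (262 and 187 CPM). The D-type cyclins CCND2 (1486 and 1440 CPM) and CCND1 (348 and 316 CPM) were both expressed. All 9 cell cycle inhibitors on the list were also expressed, among them RB1 (44.8 and 36.3 CPM), CDKN2A (23.5 and 31.0 CPM) and CDKN1A (29.3 and 38.8 CPM). MKI67 and TOP2A were lower in replicate 2, and MCM7 and BIRC5 were nearly equal in both libraries.

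The rows with the most counts were small noncoding RNAs of the cytoplasm and nucleus. RN7SL1, the RNA of the signal recognition particle that docks ribosomes to the endoplasmic reticulum, was at 20225 CPM in replicate 1 and 30781 in replicate 2. RPPH1, the RNA of RNase P, which trims tRNA precursors, was at 15111 and 20459 CPM. RN7SK, which holds back the elongation factor P-TEFb, was at 14787 and 14889 CPM, and RN7SL2 was at 10929 and 14420 CPM. RN7SL1 and RN7SL2 are near-identical copies, so the split between them is uncertain, and further copies carry the name Metazoa_SRP (4829 and 4136 CPM). Because these RNAs have a single exon, their levels could be set per length. RN7SL1 had 85294 ± 24965 CPM per kb (SD, n = 2), above both libraries of every other RNA so measured. RPPH1 (52155 ± 11089), RN7SK (44693 ± 218) and RN7SL2 (42390 ± 8254) overlapped between libraries. Within each library RPPH1 was above RN7SL2, at 44313 against 36553 in replicate 1 and 59996 against 48226 in replicate 2. RN7SK, at 44539 and 44847, has no clear order against either. RMRP, the RNA of RNase MRP, was lower at 14486 ± 1471 CPM per kb (5.90 times lower as a CPM in the combined matrix), and MT-RNR2, the large mitochondrial ribosomal RNA, was at 756 ± 407. MT-RNR2 overlapped with MT-CO3 (749 ± 235), a subunit of cytochrome oxidase.

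By class, nuclear protein-coding genes took 90.0% of counts in replicate 1 and 88.5% in replicate 2. Signal recognition particle RNA took 3.12% and 4.52%, RNase P and RNase MRP RNA 1.93% and 2.41%, and small nuclear RNA, mostly RN7SK, 1.492% and 1.4995%. Long noncoding and antisense RNA took 0.681% and 0.646%, with MALAT1, a nuclear RNA, at 936 and 573 CPM. Mitochondrial genes took 0.513% and 0.318%, and small nucleolar RNA 0.189% and 0.148%. All 17 rows of nuclear ribosomal RNA held 0 counts, and whether the RNA was selected by poly(A) or depleted of ribosomal RNA is not given in the sources used here. Clustered histone rows took 0.774% and 0.796%, led by HIST1H1E at 686 and 794 CPM. Of these 89 rows 49 were expressed, or 55.1%, beside 24.8% of all gene symbols and 63.3% of protein-coding genes. Replication-dependent histone mRNAs mostly end without a poly(A) tail, but whether all 89 rows are such genes was not tested. Signal recognition particle RNA came first after protein-coding genes in both libraries, and replicate 2 held more of the signal recognition particle RNA and less mitochondrial RNA.

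**Figure D4:**
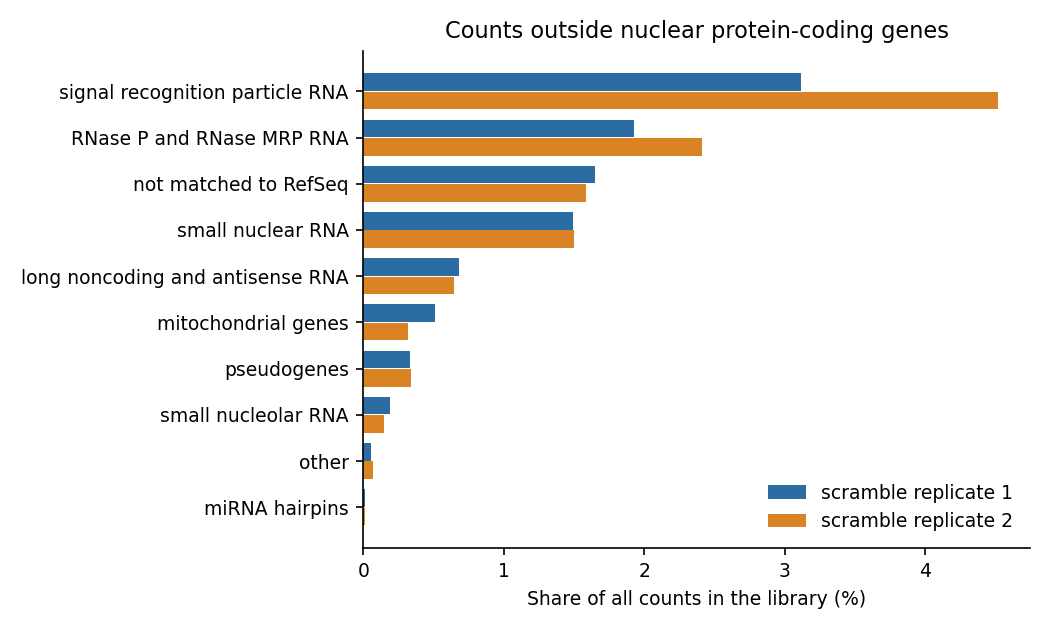
Share of all counts (x axis, percent) taken by each RNA class outside nuclear protein-coding genes, for scramble replicate 1 and replicate 2. Signal recognition particle RNA is the largest, at 3.12% and 4.52%.

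Among protein-coding genes the translation elongation factors EEF1A1 (6962 and 8101 CPM) and EEF2 (6720 and 7806 CPM) took the most reads, followed by the chaperone HSPA8 (4419 and 4115 CPM). EEF1A1 was 8.81 times lower as a CPM in the combined matrix and EEF2 1.74 times lower. HSPA8, ENO1, HSP90AA1, ACTB, ACTG1 and GAPDH were 1.51 to 2.04 times lower there, and 9 of the 20 highest protein-coding genes were shared between the tables. SCD, the desaturase that makes oleate, was at 2218 and 4247 CPM and the lipid synthase FASN at 909 and 1376 CPM. The glycolytic enzymes ENO1 (2452 and 3638 CPM) and GAPDH (1532 and 2398 CPM) and the chaperones HSP90AB1 (2953 and 2747 CPM) and HSP90AA1 (3439 and 2122 CPM) were in the same range. Actins ACTB and ACTG1 were at 2795 and 2422 CPM and at 2752 and 2420 CPM. Of 86 cytosolic ribosomal protein genes 82 were expressed (95.3%, beside 63.3% of all protein-coding genes), and the 86 together took 5.43% and 5.90% of counts. The 10 highest rows held 9.16% and 11.3% of counts, and 1014 genes in replicate 1 and 972 in replicate 2 made up 50% of them.

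The libraries differed little for most genes and more for a few groups. The median absolute difference over expressed protein-coding genes was 0.20 on the log2 scale, and 1.08% of these genes differed by more than 2-fold. Of these genes 53.3% were higher in replicate 2, 0.846% were past 2-fold higher there and 0.232% past 2-fold lower. Genes of the hypoxia response, which includes glycolysis and is driven by the HIF factors, stood on one side. Of 20 on the list 18 were expressed (90%, beside 63.3% of all protein-coding genes). All 18 were higher in replicate 2, and 7 were past 2-fold. DDIT4, a stress-induced inhibitor of mTORC1, had 2843 counts in replicate 1 and 15013 in replicate 2. PDK1, which keeps pyruvate out of mitochondria, was at 8.71 and 33.4 CPM, and BNIP3, a mitophagy receptor, at 52.8 and 150 CPM. The median over the expressed members was 0.79 on the log2 scale, and CA9 (4 and 21 counts) and EGLN3 (112 and 94 counts) were not expressed by the rule. Mitochondrial genes lay on the other side, with 15 of 15 listed genes lower in replicate 2, 2 of them past 2-fold, and a median of −0.65. MT-RNR2, for instance, was at 1627 and 731 CPM. With 1 library against 1 there is no test, and the mean of such a gene, SLC2A1 and ALDOA among them, rests on libraries that differ in this way.

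**Figure D5:**
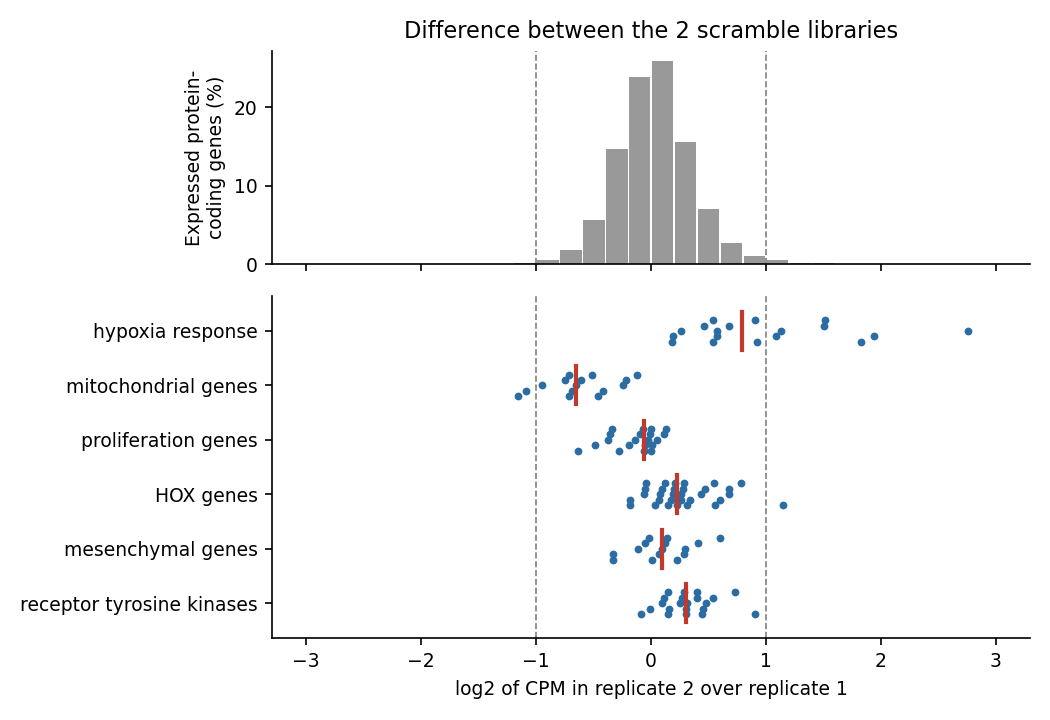
Upper panel: expressed protein-coding genes (y axis, percent) by log2 of CPM in replicate 2 over replicate 1 (x axis). Lower panel: the expressed members of 6 lists on the same axis, with red bars at list medians and dashed lines at 2-fold; all hypoxia response genes lie right of 0 and all mitochondrial genes left of it.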

How the data were processed

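Per the labels' protocols, total RNA of SNU398 cells was sequenced in read pairs. The submitters' processing notes name Trim Galore 0.4.5, STAR, featureCounts and DESeq2 and the build hg38 among their tools; the kit and the strand setting are not given in these sources, so reads of a gene and its antisense partner cannot be told apart. The authors deposited raw counts per gene symbol for each library (56303 rows, the values used) and a combined count matrix (33514 rows), used as an alternative. CPM was taken over all gene rows in Python 3.11.15 (pandas 2.3.3), with TMM factors from edgeR 4.0.16 in an alternative; the loaders and calls were tested on simulated data. Of 56301 symbols 35240 were matched to RefSeq, and 26 had been turned into dates. In the library files rows with 2 counts outnumbered rows with 1 (2935 against 1507 in replicate 1), unlike in the matrix (930 against 1957), and whether low counts there are independent, as the 3-count limit assumes, was not tested. No coding lengths were used, so levels per length are given for single-exon RNAs only. There is 1 group, and no test was made. Named genes were the 4 markers, the rows with the highest CPM, the highest and defining members of each of 32 lists, isozyme pairs and members that differed most between libraries. The members and lists were chosen with earlier results of these data known, and the gene families after seeing these values. A few results that need withheld items are not reported here.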

Additional observations from a re-analysis of the deposited data

Results flagged for a closer look

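Some protein-coding genes under 0.1 CPM in both library files carried counts in the combined matrix, which the values above do not use. Of 4391 genes at or near 0 in the library files and present in both tables, 19 reached 1 CPM in both scramble columns of the matrix, or 0.433%. In scramble column 1 of the matrix MIA2 was at 114.8 CPM (4 counts in the library file), POLR2F at 56.8 CPM (9 counts), PYURF at 27.2 CPM (2 counts) and the macrophage marker CD68 at 8.11 CPM (17 counts). In the opposite direction ECE2, HYI and C16orf46 reached 1 CPM in the library files and were under 0.1 CPM in the matrix. A count near 0 for a single gene in the library files is therefore not by itself a measure of absence, and the source of the difference was not tested.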

How the results depend on the processing

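The order of the most abundant genes changed in the combined matrix, where EEF1A1 (783 and 927 CPM) lay below EEF2 (3696 and 4647 CPM). Of 15 leukocyte and Kupffer cell markers 2 were expressed there, against 1 in the library files. Leaving abundant small RNAs and mitochondrial genes out of the total put IGF2BP1 at 188 CPM. In the combined matrix SALL4 was at 86.4 CPM, LIN28B at 100.4, IGF2BP1 at 221 and VIM at 813, 9 of the 20 highest protein-coding genes were shared, 1 mesenchymal gene was at or near 0, and protein-coding genes took 97.9% and mitochondrial genes 0.229% of counts. At 0.5 CPM as the limit 12 hepatocyte metabolism genes and 11 epithelial genes were expressed. The median promoter ratio of expressed genes was 0.845 at 0.5 CPM and 0.854 at 2 CPM. Over genes with at least 10 counts in sum, 49.8% of gene rows were expressed, against 24.8% of all. Leaving out each library in turn gave 0 to 1 mesenchymal genes at or near 0. Of the protein-coding genes at or near 0, 95% were so in the matrix too, and of those expressed 99.9%. The ranking per coding length was not run, since coding lengths were not used here. No paired analysis was possible because the result comes from no test and from a single group. With 2 libraries the spread is poorly known, and for genes with few counts, such as AFP, HNF4A and TTR, counting error limits the values too.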

Other observations

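Families of developmental transcription factors, some members of which are on the lists above, were picked out after their values were seen. TBX2, a T-box repressor of the developing limb and heart, was at 162 and 174 CPM. By family 9 of 13 T-box genes, 5 of 6 IRX genes, 22 of 44 FOX genes, 8 of 19 SOX genes and 4 of 9 PAX genes were expressed, led in the last by PAX9 at 30.5 and 26.9 CPM. The shares were 69.2% for T-box, 83.3% for IRX, 50% for FOX, 42.1% for SOX and 44.4% for PAX genes, beside 63.3% of all protein-coding genes. Of olfactory receptor genes, 1 of 387, OR3A2, was expressed.

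Matrix and adhesion genes were also looked at after their values were seen. COL11A1, a fibrillar collagen of cartilage, was at 545 and 592 CPM, LAMA2, a laminin chain of muscle basement membrane, at 339 and 408 CPM, and the integrin subunit ITGAV at 743 and 538 CPM. Of 44 collagen genes 22 were expressed, of 12 laminin genes 8, and of 24 claudin genes, which seal epithelial sheets, 4. These are shares of 50%, 66.7% and 16.7%, beside 63.3% of all protein-coding genes.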
